A study of Mus musculus with 11 samples.

Results

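The loci of Gadd45b and Gadd45g were read in ATAC-seq peak lists from the mouse dentate gyrus, the part of the hippocampus that holds granule neurons. The members are all peaks that lay at least partly within 50 kb of the 2 transcription starts in build mm9, placed to the nearest kb at chromosome 10 position 80393000 for Gadd45b and at chromosome 13 position 51942000 for Gadd45g. These were 96 of the 497658 peaks that 11 libraries held on chromosomes 1 to 19 and X, 54 at Gadd45b and 42 at Gadd45g. Peaks sharing at least 1 bp in any libraries were merged into regions, which gave 20 of 128823 regions, 11 at Gadd45b and 9 at Gadd45g.

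ATAC-seq marks open chromatin by the sites where a transposase inserts adapters, and each library came from 1 C57BL/6 mouse of 8 weeks. All mice carried an adeno-associated virus, and the shRNA it delivered was either a control (shRNA-Ctrl) or one aimed at c-Fos (shRNA-cFos), an AP-1 subunit whose gene is induced by activity. The study asked how neuronal activation changes accessibility. The state E0, whose lists are named as sham, had 3 libraries per shRNA. The state E1 had 3 libraries in shRNA-Ctrl and 2 in shRNA-cFos. Neither the share of infected cells, nor the vector's promoter, nor the degree of knockdown is given in the labels. The labels describe dissected tissue and name no sort of cells, so a change in the mix of cells and a change in accessibility per cell cannot be told apart. Marker genes of granule neurons were not read, since no mm9 annotation was used here.

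Gadd45 proteins are small acidic stress sensors without known enzymatic activity that act by binding partners. They bind and activate the kinase Map3k4 upstream of p38 and JNK signalling, and they bind the cell-cycle proteins Cdkn1a, Pcna and the Cdk1 and cyclin B1 complex. In the dentate gyrus Gadd45b is known as an activity-induced gene linked to DNA demethylation at promoters such as those of Bdnf and Fgf1 and to adult neurogenesis, and Gadd45g is likewise inducible in neurons.

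The promoters of both genes are shown first because in every library a peak lay over the start position used in mm9. The sequences are the 250 bases before the RefSeq transcription start in build GRCm38.p6, on the plus strand, at chr10:80929841-80930090 for Gadd45b (gene ID 17873) and chr13:51846425-51846674 for Gadd45g (gene ID 23882). The peaks are in mm9 and were not placed on these coordinates. Capitals mark matches to the motifs searched on both strands.
Gadd45b: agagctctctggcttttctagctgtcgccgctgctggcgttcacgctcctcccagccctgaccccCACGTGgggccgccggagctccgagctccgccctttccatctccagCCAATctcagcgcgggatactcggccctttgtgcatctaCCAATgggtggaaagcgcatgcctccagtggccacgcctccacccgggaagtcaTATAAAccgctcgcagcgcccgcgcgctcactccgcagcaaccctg
Gadd45g: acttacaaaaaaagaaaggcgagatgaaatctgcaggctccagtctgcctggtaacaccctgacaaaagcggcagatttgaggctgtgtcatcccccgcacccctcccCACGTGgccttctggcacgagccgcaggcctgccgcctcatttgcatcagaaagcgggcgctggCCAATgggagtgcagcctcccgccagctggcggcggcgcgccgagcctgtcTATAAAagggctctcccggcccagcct
The 2 promoters shared 3 of the motifs searched. Each held 1 E-box CACGTG, found in 6.02% of 32851 RefSeq promoter windows of that length, and 1 TATAAA, found in 12.4%. The TATAAA began 46 bases before the start in Gadd45b and 27 bases before it in Gadd45g. CCAAT, found in 33.8% of windows, occurred 2 times in Gadd45b and 1 time in Gadd45g. Neither sequence held the AP-1 motif TGANTCA (6.75% of windows), the cAMP response element TGACGTCA (1.55%) or its core TGACG (17.8%). No motif match overlapped another. CG dinucleotides numbered 22 in Gadd45b and 16 in Gadd45g, against a median of 6 over all windows, and 85.2% and 74.6% of windows held fewer.

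The promoters of other genes of the pathway were read for the same motifs. The list held 17 genes with Gadd45b and Gadd45g among them, namely the third paralog Gadd45a, kinases and cell-cycle partners, the demethylation enzymes Tet1, Tet2, Tet3, Tdg and Mbd4, and the targets Bdnf and Fgf1. Of these, 16 matched, with 25 promoter windows. TATAAA occurred in 2 of the 25 windows, those of Gadd45b and Gadd45g. CACGTG occurred in 3, the third being that of Tdg, a glycosylase that excises oxidised methylcytosine. TGANTCA occurred in 1 window of Bdnf, the gene of a neurotrophin. Accessibility at these other genes was not analysed here.

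The peak lists differed in length from 25145 to 78349 peaks, a 3.12-fold range, and read depth is unknown. The main readings were therefore repeated with each list cut to its 25145 top-score peaks, called lists of equal length here. The score is the authors' value for each peak, ranges from 50 to 3100 here, and was used only to rank or filter peaks within a list. The names of 9 lists carry an added word that the lists of shRNA-Ctrl E1 replicates 1 and 3 lack, and those 2 lists are also the longest. List length and state nearly coincided: the 5 shortest lists, of 25145 to 33134 peaks, were all from E0, the E1 lists held 35474 to 78349 peaks, and 1 E0 list, with 74432, lay among them. The part of list length and of that word in the differences between groups was not tested. Tests were two-sided exact permutation tests over libraries, with E0 and E1 exchanged within each shRNA group and the 2 group differences averaged. The 200 relabellings allow no p under 0.005, and p was adjusted by the Benjamini-Hochberg method over all regions, or over all 100 kb tiles of the genome with the 2 windows. No adjusted p in this work fell under 0.05.

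A promoter region was called in all 11 libraries at both genes, as deposited and with lists of equal length. Regions called in all 11 libraries made up 9.16% of regions as deposited and 16.4% at equal length. The Gadd45b promoter region ran over chromosome 10 from 80391153 to 80394444, and the Gadd45g region over chromosome 13 from 51940735 to 51945452. These spans are the union of all libraries, and most libraries covered a part of them. The deposited score of the top promoter peak ranged from 140.24 to 463.06 at Gadd45b and from 132.18 to 350.19 at Gadd45g.

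**Figure D1:**
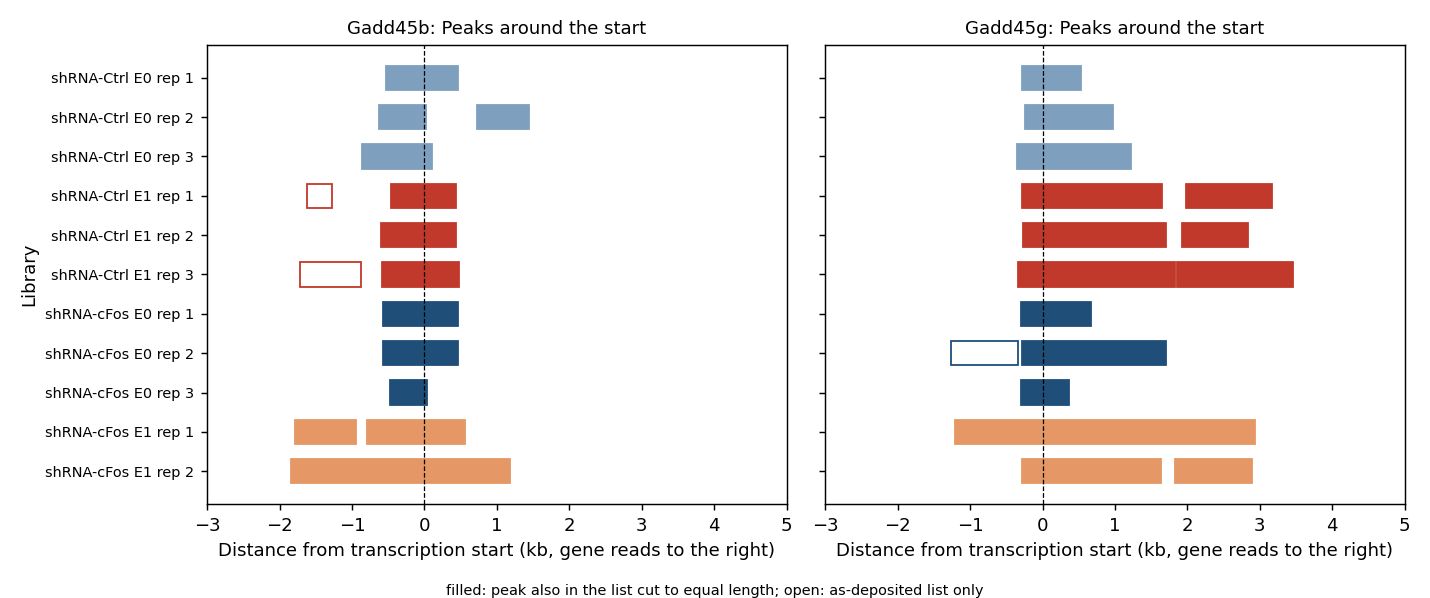
Peaks of each library (rows) between 3 kb before and 5 kb after the start (dashed line; x axis, distance in kb), with filled bars for peaks also in the list of equal length and open bars for peaks in the deposited list only. At Gadd45g the peaks of all 5 E1 libraries end between 2842 and 3452 bp after the start and those of all 6 E0 libraries between 360 and 1701 bp. At Gadd45b 4 of 5 E1 libraries reach at least 1620 bp before the start as deposited, and at equal length only the 2 shRNA-cFos E1 libraries do.

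At Gadd45g, open chromatin was called over a longer stretch at E1 than at E0. In shRNA-Ctrl the promoter region was covered over 817, 1224 and 1575 bp at E0 in replicates 1, 2 and 3, and at E1 over 3121, 2893 and 3776 bp. All 3 E1 values lay above all 3 E0 values. How many regions separate in this way within a shRNA group was not counted. In shRNA-cFos E0 the covered length was 970, 2911 and 656 bp, and in shRNA-cFos E1 replicates 1 and 2 it was 4141 and 2984 bp. The shRNA-cFos E1 libraries again lay above their E0 libraries, although E0 replicate 2, whose list held 74432 peaks, came close. Over both shRNA groups the length at E1 overlapped that at E0 by this 1 library, with 2893 bp as the lowest E1 value.

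The group means were 1205 ± 379 bp (SD, n = 3) and 3263 ± 458 bp (n = 3) for shRNA-Ctrl at E0 and E1, a 2.71-fold difference. In shRNA-cFos they were 1512 ± 1221 bp (n = 3) and 3562 ± 818 bp (n = 2), a 2.36-fold difference. The E1 difference, averaged over shRNA groups, was 2054 bp (exact permutation p = 0.01, adjusted p = 0.346), larger than the SD in every group. A covered length higher at E1 with an exact permutation p under 0.05 was found in 11.2% of regions called in all 11 libraries, with 0.263% lower, and in 7.62% of all regions. A length above every E0 library in every E1 library, which Gadd45g missed by this 1 library, was found in 1.32%. Of the 11796 regions called in all libraries, 9 had a larger E1 difference in length than Gadd45g, and the median difference was 86.6 bp. Over all 11 libraries the median covered length at Gadd45g, 2893 bp, exceeded that of 99.4% of these regions, whose median was 876 bp. This median is the lowest E1 value, so it does not give the breadth at E0. At equal length the median was 1989 bp and exceeded that of 96.2% of regions called in all libraries.

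With lists of equal length the covered lengths of the merged promoter region separated fully by state. The E1 libraries kept their values of 2893 to 4141 bp, and the highest E0 value fell to 1989 bp in shRNA-cFos E0 replicate 2. The E1 difference was 2208 bp (exact permutation p = 0.005, the smallest possible, and adjusted p = 0.243). A covered length above that of every E0 library in every E1 library was found in 1.16% of the 9716 regions called in all libraries at equal length. Of these 9716 regions, 3 had a larger E1 difference, 10.6% were longer at E1 with an exact permutation p under 0.05 and 0.298% were shorter. Among the 9 lists whose names carry the added word, the E1 difference was 1869 bp as deposited (exact permutation p = 0.025, the smallest that these lists allow). That comparison was added after seeing the data and rests on 3 E1 libraries. The peak over the start, taken alone, did not separate the states at equal length. It measured 1934, 1976 and 2177 bp in shRNA-Ctrl E1 and 4141 and 1923 bp in shRNA-cFos E1. In shRNA-cFos E0 replicate 2 it measured 1989 bp, and in the other E0 libraries 656 to 1575 bp.

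**Figure D2:**
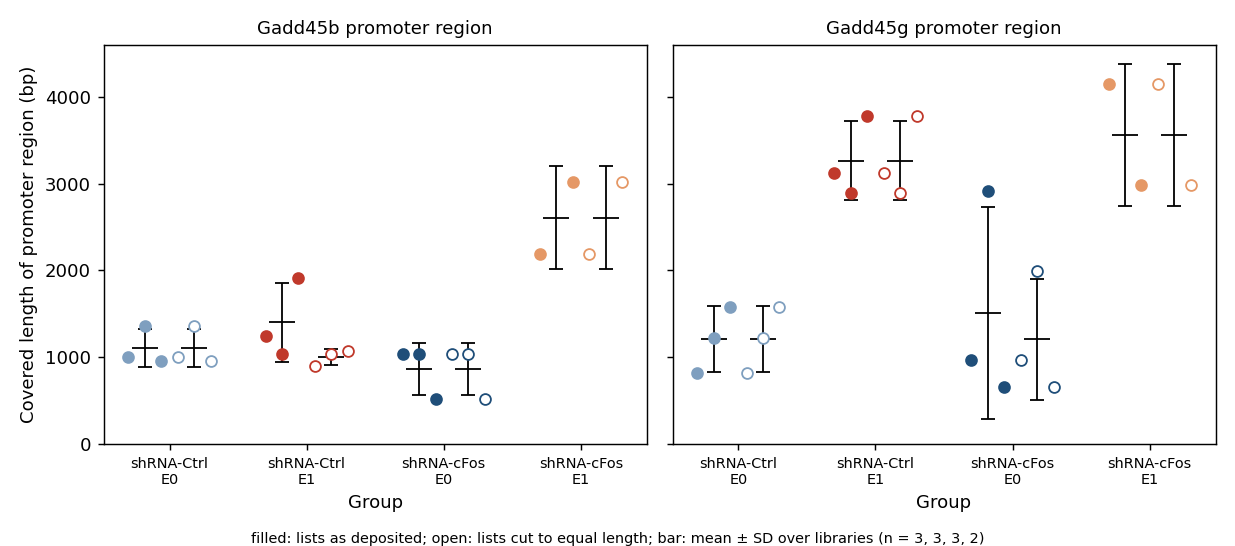
Covered length of the promoter region in bp (y axis) in each library of the 4 groups (x axis), with lists as deposited (filled) and of equal length (open), and mean ± SD over libraries as bars. At Gadd45g the E1 libraries lie at 2893 bp or more and at equal length all E0 libraries lie at 1989 bp or less; at Gadd45b the 2 shRNA-cFos E1 libraries, at 2185 and 3023 bp, stand above all others.

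The added length at Gadd45g lay downstream of the start. Which side the peaks extended to was read after seeing the data and is given as values without a test. In shRNA-Ctrl the last covered base of the promoter region lay 536, 976 and 1216 bp after the start at E0, and 3164, 2842 and 3452 bp after it at E1. In shRNA-cFos it lay 669, 1701 and 360 bp after the start at E0, and 2937 and 2886 bp after it at E1. Every E1 library reached farther downstream than every E0 library, in lists as deposited and of equal length. At least 1 edge farther out in every E1 than in every E0 library was found in 2.31% of regions called in all 11 libraries as deposited, and in 2.14% at equal length.

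The Gadd45g gene is 1801 bp long in the GRCm38.p6 annotation and reads away from the start on the plus strand. All 6 E0 libraries ended within that length of the start and all 5 E1 libraries ended beyond it, although the start is known here only to the nearest kb. Between 2 and 3.5 kb after the start, no E0 library had a covered base. The E1 libraries covered 1165, 843 and 1453 bp of this stretch in shRNA-Ctrl and 938 and 887 bp in shRNA-cFos. These values follow from the edges above and are no separate result, and their share over all regions was not counted. In 4 of the 5 E1 libraries this stretch was a peak of its own, with deposited scores of 185.17, 100.03, 211.60 and 123.04, and in shRNA-cFos E1 replicate 1 a single peak of 4141 bp spanned it. The upstream edge lay 247 to 358 bp before the start in 9 of 11 libraries, with 1265 bp in shRNA-cFos E0 replicate 2 and 1203 bp in shRNA-cFos E1 replicate 1.

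At Gadd45b the promoter region was also longer at E1 as deposited. An exact permutation p under 0.05 was not kept at equal length or without certain single libraries. In shRNA-Ctrl the covered length was 997, 1359 and 961 bp at E0, and 1248, 1039 and 1912 bp at E1. These groups overlapped. In shRNA-cFos E0 it was 1039, 1040 and 519 bp, and in shRNA-cFos E1 it was 2185 and 3023 bp, so these groups did not overlap. The share of regions with such a separation was not counted. The means were 1106 ± 220 bp (SD, n = 3) and 1400 ± 456 bp (n = 3) for shRNA-Ctrl at E0 and E1, and 866 ± 301 bp (n = 3) and 2604 ± 593 bp (n = 2) in shRNA-cFos E0 and E1.

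The E1 difference was 1016 bp (exact permutation p = 0.025, adjusted p = 0.417), against 11.2% of regions called in all libraries that were longer at E1 by the same test. Among those regions 87 had a larger difference. With lists of equal length it was 818 bp (exact permutation p = 0.07), since the upstream peaks of shRNA-Ctrl E1 replicates 1 and 3 ranked below the 25145 top-score peaks. The call was also lost without shRNA-Ctrl E1 replicate 3 (888 bp, exact p = 0.05), without any 1 of the 3 shRNA-cFos E0 libraries (929 to 1060 bp, exact p = 0.0833) and without shRNA-cFos E1 replicate 1 or 2 (1226 and 806 bp, exact p = 0.0625). Each leave-out also leaves fewer relabellings. The leave-outs kept the regions merged from all 11 libraries, and with these the difference stayed between 806 and 1226 bp. Only the 3023 bp peak of shRNA-cFos E1 replicate 2 joined the upstream peaks of other libraries to the peaks at the start. The difference with regions formed anew without that library was not computed, so this range does not show that the difference is stable. Among lists that carry the added word the E1 difference was 836 bp (exact permutation p = 0.05).

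At Gadd45b the edges were also read after seeing the data, and as deposited most of the E1 libraries reached farther upstream. The first covered base lay 1620, 602 and 1715 bp before the start in shRNA-Ctrl E1 and 1788 and 1847 bp before it in shRNA-cFos E1. In the 6 E0 libraries it lay 479 to 855 bp before the start. By these edges no E0 library had a covered base between 1 and 2 kb upstream, so this is no separate result. Of the E1 libraries 4 of 5 covered 345 to 848 bp there, and the share of regions with such a pattern was not counted. The exception was replicate 2 of shRNA-Ctrl E1, whose list held 35474 peaks. At equal length the shRNA-Ctrl libraries began 463 to 602 bp before the start at E1 and 530 to 855 bp at E0, so that the upstream stretch was left in the 2 shRNA-cFos E1 libraries alone. Downstream, the last covered base in shRNA-cFos lay 463, 465 and 39 bp after the start at E0 and 553 and 1175 bp after it at E1, while in shRNA-Ctrl it lay 466, 1444 and 105 bp after it at E0 and 439, 436 and 479 bp at E1. The deposited scores of the separate upstream peaks were 86.31, 106.12 and 104.79 in shRNA-Ctrl E1 replicates 1 and 3 and shRNA-cFos E1 replicate 1, and in shRNA-cFos E1 replicate 2 a peak of 3023 bp reached from this stretch across the start.

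**Figure D3:**
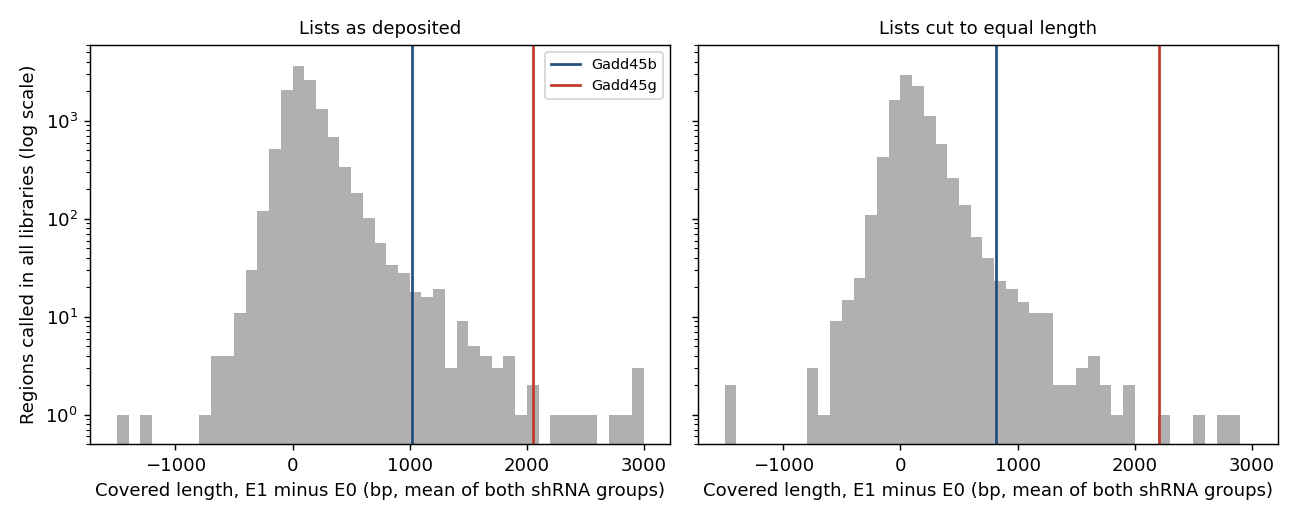
Number of regions called in all libraries (y axis, log scale) by the E1 minus E0 difference in covered length (x axis, bp, bins of 100 bp, with values beyond the axis in the end bins), with lists as deposited and of equal length. The lines of Gadd45b, at 1016 and 818 bp, and of Gadd45g, at 2054 and 2208 bp, lie in the right tail.

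The rank of the promoter peaks by score did not pass the test for E1 against E0 at either gene. Among lists of equal length the Gadd45b promoter peak had score percentiles of 73.4, 65.3 and 66.7 in shRNA-Ctrl libraries at E0 and 67.9, 74.5 and 69.7 at E1. It had 60.4, 65.8 and 81.2 in shRNA-cFos E0 and 60.7 and 61.9 in shRNA-cFos E1. The states overlapped in shRNA-Ctrl and in shRNA-cFos. The E1 difference in percentile was -2.78 points (exact permutation p = 0.685).

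The Gadd45g promoter peak lay at percentiles of 63.5, 74.6 and 67.2 in shRNA-Ctrl libraries at E0 and 22.1, 73.2 and 54.5 at E1. In shRNA-cFos it lay at 72.7, 55.8 and 74.5 at E0 and at 77.5 and 66.3 at E1. The states overlapped in both shRNA groups. The low value of 22.1 belonged to shRNA-Ctrl E1 replicate 1, the longest list. The E1 difference was -7.16 points (exact permutation p = 0.515). A percentile higher at E1 with an exact permutation p under 0.05 was found in 5.67% of regions called in all libraries at equal length, and a lower one in 9.2%. In full lists the differences turned positive, 6.58 points at Gadd45b (exact p = 0.19) and 6.19 points at Gadd45g (exact p = 0.105), but percentiles of lists of different length show no change.

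The number of peaks within 50 kb was high in the long lists. In the Gadd45b window shRNA-Ctrl E0 libraries had 3 peaks each, shRNA-Ctrl E1 libraries 6, 4 and 8, shRNA-cFos E0 libraries 3, 9 and 2, and shRNA-cFos E1 libraries 8 and 5. In the Gadd45g window the numbers were 1, 3 and 3 for shRNA-Ctrl at E0, 7, 4 and 7 for it at E1, 2, 6 and 2 in shRNA-cFos E0, and 3 and 4 in shRNA-cFos E1. In shRNA-Ctrl all E1 numbers lay above all E0 numbers at both genes. The list lengths of this group separated as well, with 25145 to 29519 peaks at E0 and 35474 to 78349 at E1. The share of tiles with such a separation was not counted. In shRNA-cFos the states overlapped at both, since E0 replicate 2, the third longest list, held 9 and 6 peaks.

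**Figure D4:**
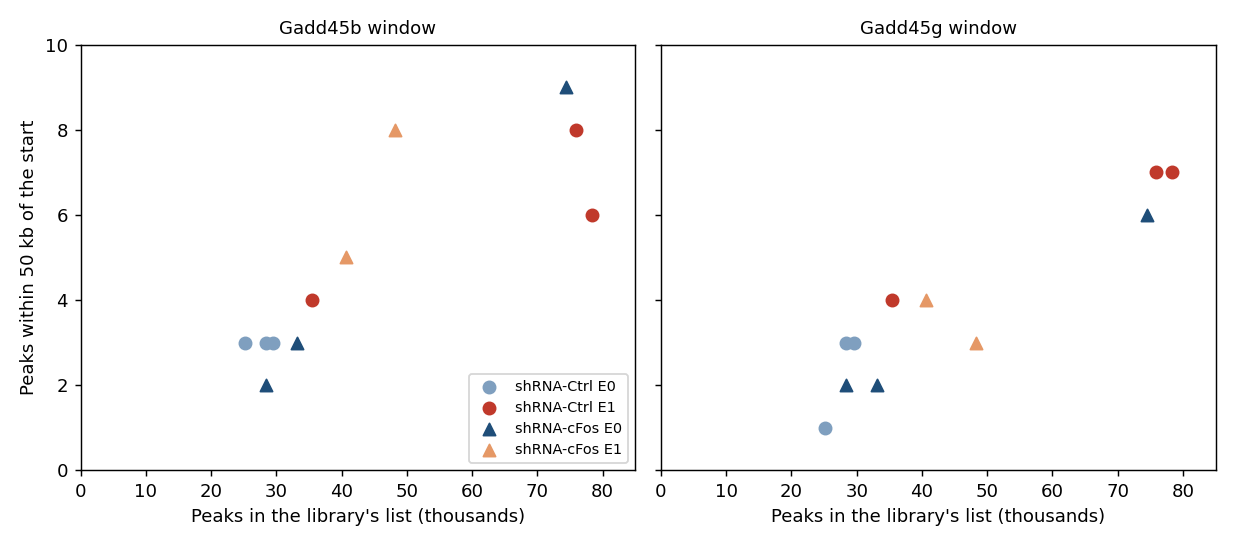
Peaks within 50 kb of the start (y axis) against the number of peaks in the library's list (x axis), with 1 point per library, a colour per group and a symbol per shRNA. The 3 lists with at least 74432 peaks hold 6 to 9 peaks at Gadd45b and 6 to 7 at Gadd45g, and of the E0 lists only that of shRNA-cFos replicate 2 is longer than the shortest E1 list.

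The E1 difference was 2.42 peaks at Gadd45b (exact permutation p = 0.165) and 1.92 peaks at Gadd45g (exact permutation p = 0.13). Peak numbers higher at E1 by this test were found in 7.24% of 23259 tiles of 100 kb, and lower ones in 0.0301%. With lists of equal length the differences were 0.583 and 0.667 peaks (exact p = 0.34 and 0.15), where 4.82% of tiles were higher. Without shRNA-cFos E0 replicate 2, with lists as deposited, they were 3.5 and 2.58 peaks (exact p = 0.0167 for each). Without that library every E1 list was longer than every E0 list, so state and list length cannot be told apart there. The share of tiles that pass without it was not counted. For Gadd45b, windows of 25 and 100 kb on each side gave 2.0 and 7.0 peaks more at E1 (exact permutation p = 0.015 and 0.03), where lists were used as deposited. For Gadd45g they gave 0.917 and 3.08 peaks more (exact permutation p = 0.275 and 0.265). The covered length of the Gadd45g window was 2712 bp greater at E1 (exact permutation p = 0.03), and 2210 bp greater at equal length (exact p = 0.005, adjusted p = 0.148). The promoter region alone gave 2208 bp. For the Gadd45b window the differences were 2600 bp (exact permutation p = 0.055) and 1552 bp (exact p = 0.125). A covered length higher at E1 was found in 11.6% of tiles as deposited and in 11.9% at equal length.

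Each window held at least 1 recurrent region beside its promoter. Regions called in at least 6 libraries made up 25.6% of all regions, and there were 4 of 11 at Gadd45b and 2 of 9 at Gadd45g with the promoters included. The 2 windows were not compared by a test. In the GRCm38.p6 annotation the coding genes next to Gadd45b are Lmnb2, a lamin gene, and Gng7, a G protein subunit gene, and those next to Gadd45g are Sema4d, a semaphorin gene, and Diras2. Distances below are from the start to the centre of a region.

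At Gadd45b a region 29.7 kb upstream, on chromosome 10 at 80362385 to 80364177, was called in all 11 libraries, and in all 11 at equal length. Within single lists its top score was above that of the promoter in 9 libraries and below it in 2, both from E0 (replicate 1 of shRNA-Ctrl and replicate 3 of shRNA-cFos). The next region, 12.3 kb upstream at 80379970 to 80381336, was called in 5 of 5 E1 and 3 of 6 E0 libraries. Its calls did not pass the test for E1 against E0 (exact permutation p = 0.2), and the share of regions with such counts was not computed. At equal length it was called in 2 E1 and 3 E0 libraries. A region 9.6 kb downstream at 80402285 to 80402942 was called in all 3 shRNA-Ctrl E1 and no shRNA-Ctrl E0 library, a pattern found in 6.04% of regions. The same region was called in 2 of 3 shRNA-cFos E0 and both shRNA-cFos E1 libraries. At equal length it was left in 1 shRNA-cFos E0 and 1 shRNA-cFos E1 library and in no shRNA-Ctrl library.

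At Gadd45g the most recurrent distal region lay 40.9 kb upstream on chromosome 13 at 51900606 to 51901656. It was called in 10 libraries, all but shRNA-Ctrl E0 replicate 1, and in 4 at equal length. A region 6.8 kb upstream at 51934986 to 51935481 separated the shRNA-Ctrl states, with calls in 3 of 3 libraries at E1 and 0 of 3 at E0. Outside shRNA-Ctrl it was called in shRNA-cFos E0 replicate 2 and in neither shRNA-cFos E1 library. A region 46.5 kb upstream at 51895227 to 51895828 was called in both shRNA-cFos E1 and in no shRNA-cFos E0 library, a pattern found in 1.96% of regions. It was also called in shRNA-Ctrl E1 replicate 1. Neither of these last 2 regions was among the top-score peaks of any library at equal length.

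**Figure D5:**
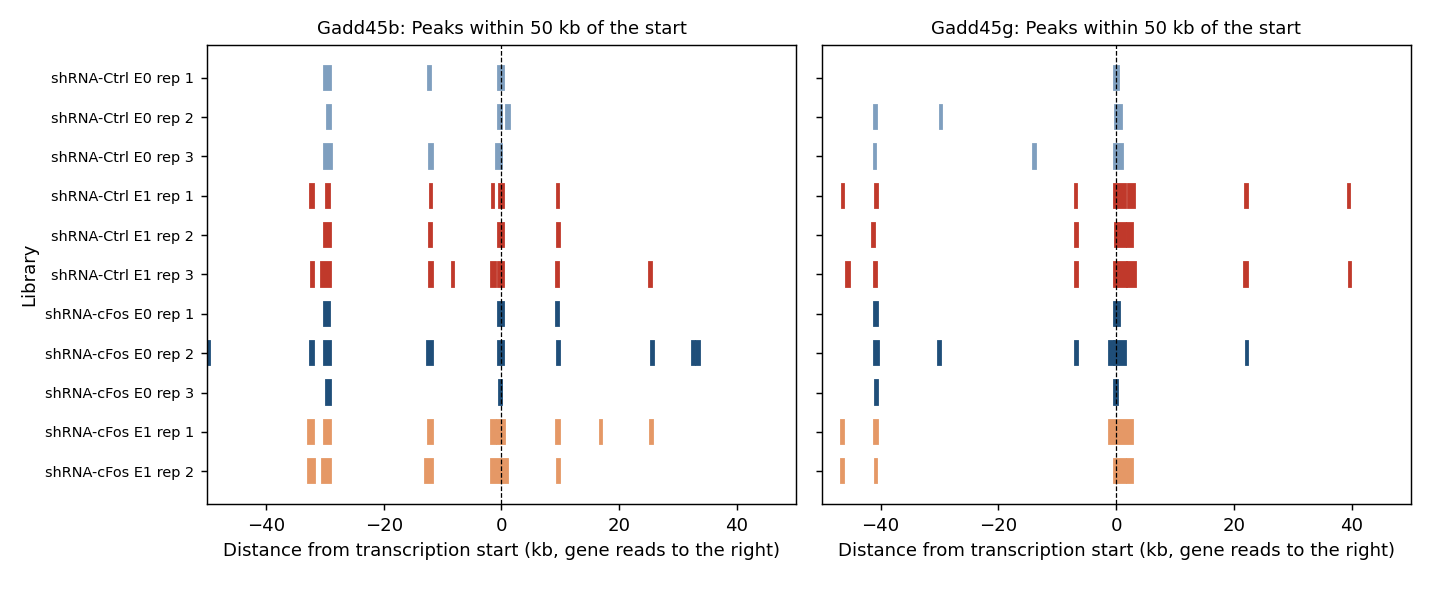
Peaks of each library (rows) within 50 kb of the start (dashed line; x axis, distance in kb), as deposited, coloured by group. At Gadd45b the promoter and the region 29.7 kb upstream recur in all 11 libraries, and at Gadd45g the promoter recurs in all 11 and the region 40.9 kb upstream in 10.

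The other 12 regions were called in 1 to 5 libraries each. Of all 20 regions, 7 were called in 1 library only, against 37.9% of regions in all, and 11 were in no library at equal length. Over the genome 59301 regions were formed at equal length against 128823 as deposited. Called in at least 1 E1 and no E0 library were 5 regions, and 5 showed the reverse, where the shares over all regions were 32.8% and 19.3%. In a test of calls for E1 against E0, 0 of the 20 regions had an exact permutation p under 0.05, where 3.48% of all regions were called more often at E1 and 0.0241% less often. The regions 9.6 kb downstream of Gadd45b and 46.5 kb upstream of Gadd45g each had an exact permutation p of 0.05. The latter had an exact permutation p of 0.04 without shRNA-Ctrl E1 replicate 2 or 3. No region was called in all E0 and no E1 libraries of a shRNA group, a pattern found in 0.0442% of regions in shRNA-Ctrl and 0.548% in shRNA-cFos.

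Between shRNA groups no measure at either gene passed the test. With the shRNA exchanged within each state, shRNA-cFos minus shRNA-Ctrl was 1.08 peaks at Gadd45b and -0.75 peaks at Gadd45g (exact permutation p = 0.46 and 0.575), where 0.348% of tiles were higher and 0.103% lower by this test. The covered promoter length differed by 482 bp at Gadd45b and 303 bp at Gadd45g (exact permutation p = 0.215 and 0.515), where 3.52% of regions were longer and 0.0629% shorter. The score percentile at equal length differed by -4.36 points at Gadd45b and 10.6 points at Gadd45g (exact permutation p = 0.28 and 0.405), where 2.41% of regions were higher and 1.08% lower. Without shRNA-cFos E0 replicate 3 the difference at Gadd45b was -7.38 points (exact permutation p = 0.03). At Gadd45g the E1 difference in covered promoter length was 2058 bp in shRNA-Ctrl and 2050 bp in shRNA-cFos, and the difference between them was -7.83 bp (exact permutation p = 0.99), with 2058 and 2358 bp at equal length. With so few libraries this does not show that the 2 groups respond alike. At Gadd45b the E1 differences of the 2 shRNA groups differed at equal length, by 2.5 peaks in the window, 3572 bp of window covered and 1840 bp of promoter region covered (exact permutation p = 0.02, 0.03 and 0.035, adjusted p = 1.0 for each). The same test passed in 0.841% of tiles for peaks, 1.76% of tiles for covered length and 0.87% of regions. As deposited none of these passed, with -1.17 peaks, 2108 bp and 1444 bp (exact permutation p = 0.745, 0.48 and 0.15), and at equal length each was lost without any 1 of the 5 shRNA-cFos libraries.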

How the data were processed

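The data were 11 deposited peak lists, 1 per library and mouse, in 4 groups. Reads were aligned with Bowtie2 to mm9 per the submitters' processing notes, and peak names carry the name of the caller MACS. Caller settings, read filters and any shift of reads were not stated in the labels used. Each deposited score per peak has no stated scale and served only to rank or filter peaks within a list. Each list is the only measure of its library's precision, since depth is unknown.

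Peaks on chromosomes 1 to 19 and X were merged and tested as described, which left out 554 peaks. Every region of the 2 windows was accounted for. Those named were the promoters, regions called in at least 6 libraries, and regions called in all libraries of 1 state and none of the other within a shRNA group. The members and lists were chosen with earlier results of these data known. Alternatives were a score of at least 100, other windows, merging of peaks within 200 bp, a minimum of 50% of the region for a call, each library left out and the replicate number as a block. The lists with the added word, the peak edges and the difference between E1 differences were added after seeing the data. The code was tested on simulated data. Replicate numbers do not name shared animals. Python 3.11.15 ran scipy 1.17.1 and numpy 2.4.6, with tables in pandas 2.3.3 and plots in matplotlib 3.10.9.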

Additional observations from a re-analysis of the deposited data

Results flagged for a closer look

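At Gadd45b the E1 difference was larger in shRNA-cFos than in shRNA-Ctrl when lists had equal length, by a test of the difference itself that was added after seeing the data. The peak number in the window differed by 1.83 at E1 in shRNA-cFos and -0.667 in shRNA-Ctrl, a difference of 2.5 peaks (exact permutation p = 0.02), where 0.841% of tiles passed. The covered length of the window gave a difference of 3572 bp (exact permutation p = 0.03), where 1.76% of tiles passed. The covered length of the promoter region differed by 1738 bp at E1 in shRNA-cFos and -102 bp in shRNA-Ctrl, a difference of 1840 bp (exact permutation p = 0.035), where 0.87% of regions passed.

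At equal length each adjusted p was 1.0. As deposited the differences were -1.17 peaks, 2108 bp and 1444 bp (exact permutation p = 0.745, 0.48 and 0.15), so that of the peak number turned sign. At equal length each of the 3 lost its call without any 1 of the shRNA-cFos libraries, with exact p from 0.05 to 0.117. Of the shRNA-Ctrl libraries, leaving out E0 replicate 1, 2 or 3 ended the call of the peak number (exact p = 0.05 for each), E0 replicate 1 or 3 or E1 replicate 1 that of the window length (exact p = 0.05, 0.05 and 0.07), and E0 replicate 2 or E1 replicate 1 that of the promoter length (exact p = 0.07 and 0.06).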

How the results depend on the processing

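The longer Gadd45g promoter region at E1 kept its direction and an exact permutation p under 0.05 with a score of at least 100, equal length, peaks within 200 bp merged, the lists with the added word, and each library left out (1765 to 2404 bp). With the replicate block it was 1840 bp (exact permutation p = 0.0625, the smallest that 32 relabellings allow), and the Gadd45b value 929 bp (exact p = 0.188). After removal of group means, calls of same-numbered libraries correlated at -0.0424 to 0.0466 and those of differently numbered libraries at -0.0487 to 0.0355. With group means taken from 2 or 3 libraries, these values cannot tell whether replicate numbers pair the libraries. With the block no result could reach a p under 0.05, and libraries without a same-numbered partner were left out. It turned the Gadd45b percentile difference to 0.243 points. The Gadd45b promoter length was 818 bp at equal length, 836 bp with the added word and 806 to 1226 bp with a library left out. Leave-outs kept the regions merged from all 11 libraries, and at Gadd45b the merged region rests on 1 peak of shRNA-cFos E1 replicate 2. Leave-outs gave E1 differences of 1.67 to 3.5 peaks at Gadd45b and 1.58 to 2.58 at Gadd45g, shRNA differences of 0.0 to 1.83 and -1.42 to -0.417 peaks, E1 percentile differences of -4.98 to 0.243 and -13.0 to -0.198 points, and shRNA percentile differences of -7.38 to -2.16 and 3.65 to 16.4 points. Full lists gave 6.58 and 6.19 points, and lists with the added word 4.48 at Gadd45g. At Gadd45b windows of 25 and 100 kb gave 2.0 and 7.0 peaks. Covered length gave 2712 bp for E1 and 157 bp for the shRNA at Gadd45g, the latter against -0.75 peaks. Regions with an exact permutation p under 0.05 numbered 0 to 1 with a library left out and 1 with 50% of the region covered, the Gadd45g promoter itself (exact p = 0.02). The cause was not tested. Of 179 alternatives 154 were counted as the same in direction and call. That count includes differences of 0.0, which have no direction, and many results that did not pass the test in any setting.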
